A study of Mus musculus with 2 samples.

Results

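Gm42427, Gm4316, Gm7968 and AC140207.2 are 4 mouse genes annotated without a coding sequence. In fetal testes, reads of piRNA length that matched 1 of them and no other annotated gene were mostly in the sense direction. Counted for each are the small RNAs of 16 to 36 nt that match, on either strand, a transcript of 1 of these genes and of no other annotated gene. The 4 loci were chosen by the level of their RNAs of 24 to 33 nt, by the share of sense reads and by uracil at position 1, so these properties are given below as descriptions without a test. They are 4 of 18596 annotated genes with such a read, of which 3405 were noncoding. Among the 104 noncoding genes with at least 50 reads of 24 to 33 nt, 67 were matched mostly in sense, and 54 of those also had uracil at position 1 in at least 50% of reads. Ranked by level, the 4 loci stood at places 1, 3, 4 and 5 of these 54. The genes at places 2 and 6, Gm47761 and Gm43305, had 51.8% and 51.3% sense reads and were not chosen, while Gm42427 with 68.4% over both libraries was the least one-sided of those that were.

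PIWI-interacting RNAs (piRNAs) guide PIWI proteins to complementary transcripts, and in the fetal male germ line they silence transposons while DNA methylation is being set. Primary piRNAs are cut from single-stranded precursors and usually start with uracil. When a PIWI protein cuts a target, it does so opposite the bond between positions 10 and 11 of its guide, so the 2 partners of the ping-pong cycle overlap by 10 nt at their 5′ ends and the secondary piRNA tends to carry adenine at position 10. In fetal testes MILI carries the shorter and MIWI2 the longer piRNAs.

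The study asked how loss of Hsp90α, a chaperone, affects piRNAs of the fetal testis. One small RNA library was made from whole WT testes and one from whole Hsp90α KO testes, both at E16.5 in C57BL/6 mice, each from 20 pooled testes, so that there is 1 library per genotype and no replicate. The KO library is called by its label here, since it could not be checked: sense fragments of the Hsp90aa1 transcript were read 2 times in WT and 10 times in KO, those of its paralogue Hsp90ab1 32 and 36 times, and the sources used here do not say which part of the gene the knockout removes. Libraries held 6409305 (WT) and 5589326 (KO) reads, of which 39.4% and 45.8% matched miRNA hairpins. Levels are given as reads per 1000000 miRNA-hairpin reads (RPM), on which scale 3 reads are 1.19 in WT and 1.17 in KO. Intervals are 95% intervals, Clopper-Pearson for ratios and Wilson for shares. They cover counting error only, and reads of one sequence are not independent molecules.

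The most read RNAs show how unlike the loci are. In the following sequences, written with T for U as in the files, the capitals mark positions 1 and 10. Positions on a transcript are counted from 1 at its 5′ end, and genome positions are those of GRCm38 on the plus strand, on which all of these genes lie. At Gm42427 several positions gave piRNAs, and its 3 most read sense RNAs and the most read antisense RNA are shown. At Gm4316 and Gm7968 the 3 most read sense RNAs shared their 5′ end and differed by 1 or 2 bases at the 3′ end, so only the most read is shown, for Gm7968 with its most read antisense RNA. Sequences of AC140207.2 are not shown.
Gm42427 sense, chr5:44139235-44139264: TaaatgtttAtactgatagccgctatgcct
Gm42427 sense, chr5:44138644-44138670: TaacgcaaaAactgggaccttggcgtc
Gm42427 sense, chr5:44138880-44138907: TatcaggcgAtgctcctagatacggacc
Gm42427 antisense, chr5:44139624-44139650: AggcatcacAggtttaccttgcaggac
Gm4316 sense, chr8:123170935-123170961: TaagaacttGgaacctcgctgaaaagg
Gm7968 sense, chr15:35590187-35590216: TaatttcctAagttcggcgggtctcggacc
Gm7968 antisense, chr15:35590186-35590212: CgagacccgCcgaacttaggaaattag

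All of the sense RNAs shown start with T. Those of Gm42427 and Gm7968 also have A at position 10, whereas that of Gm4316 has G there. The RNA of Gm4316 was read 402 times in WT and 144 times in KO, and that of Gm7968 337 and 106 times. The 3 sense RNAs of Gm42427 were read 84, 59 and 30 times in WT and 39, 36 and 15 times in KO, so that no single sequence ruled this locus. The antisense RNA of Gm42427 was read 25 times in WT and 4 times in KO, and that of Gm7968 71 and 18 times.

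Fewer piRNAs were read from each of the 4 loci in KO than in WT. Together they gave 3506 reads of 24 to 33 nt in WT and 1459 in KO, which is 1390 and 570 RPM and a KO/WT ratio of 0.410 (0.385 to 0.436). Gm42427 had the highest level, with 1656 reads in WT and 731 in KO (656 and 285 RPM) and a ratio of 0.435 (0.398 to 0.475). Gm4316 had 647 and 259 reads (256 and 101 RPM) and a ratio of 0.394 (0.340 to 0.456). The lowest ratio of RNAs matching no other gene was that of Gm7968, which had 689 and 214 reads (273 and 83.5 RPM) and a ratio of 0.306 (0.261 to 0.357). It was no longer the lowest when RNAs shared with other genes were kept (0.383, against 0.366 at Gm4316 and 0.378 at Gm42427) or when each sequence was counted once over the miRNA total in reads (0.555, against 0.526 at Gm42427). AC140207.2 had 514 and 255 reads (204 and 99.6 RPM) and a ratio of 0.489 (0.419 to 0.569). All 4 ratios lay below 0.5, as did those of 66.3% of the 104 noncoding genes with enough reads, whose median was 0.429, and of 72.1% of the 86 with uracil at position 1 in at least 50% of reads. Ratios of this size were thus common among the noncoding genes of these libraries. Normalized to all reads, Gm42427 (0.506) and AC140207.2 (0.569) lay above 0.5 and the share of noncoding genes below it was 50%, and normalized to structural RNA AC140207.2 had 0.559 and the share was 53.8%. Over all 391 annotated genes with at least 50 such reads the share below 0.5 was 45.8% and the median ratio 0.533.

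**Figure D1:**
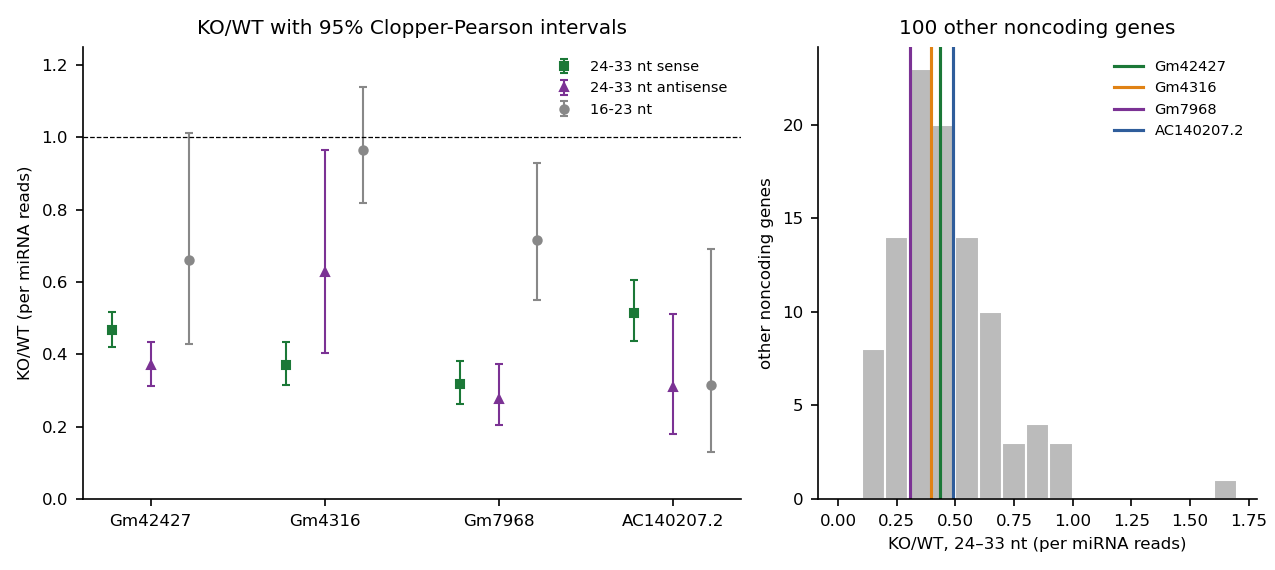
Left, KO/WT ratio of reads per miRNA reads (linear axis) at each locus for sense RNAs of 24 to 33 nt (squares), antisense RNAs of 24 to 33 nt (triangles) and RNAs of 16 to 23 nt (circles), with 95% Clopper-Pearson intervals, and the dashed line at equal levels; all squares and triangles lie below it, whereas the circle of Gm4316 is at 0.965. Right, histogram of the ratio of 24-to-33-nt RNAs over 100 other noncoding genes, with lines for the 4 loci, which lie between 0.306 and 0.489.

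The ratios were compared with each other and with the other 100 noncoding genes pooled, which gave 17805 reads in WT and 8563 in KO and a ratio of 0.474 (0.462 to 0.486). Fisher's exact test on reads, two-sided and with Benjamini-Hochberg adjustment over 10 comparisons, gave 5 adjusted p-values below 0.05. Gm7968 was in 4 of them. Its ratio was lower than that of the other noncoding genes by a factor of 0.646 (0.550 to 0.756; Fisher's exact test, adjusted p = 1.46e-07) and lower than that of AC140207.2 by a factor of 0.626 (0.502 to 0.780; Fisher's exact test, adjusted p = 0.0001). The other noncoding genes enter as 1 pooled count, so the spread between genes is not covered. Unlike the 4 loci, they were not chosen by uracil at position 1. In WT 62.6% of their pooled reads had it, against 78.4% at the 4 loci together. A ratio lower than that of this pool is therefore no difference from genes chosen alike. Among the 86 noncoding genes with uracil at position 1 in at least 50% of reads, the ratios had quartiles of 0.310 and 0.517. The ratio of Gm7968, 0.306, lay close to the lower quartile. The ratio of Gm42427 was 1.42 times (1.19 to 1.70) that of Gm7968 (Fisher's exact test, adjusted p = 0.00028), and that of Gm4316 was 1.29 times (1.04 to 1.60) that of Gm7968 (Fisher's exact test, adjusted p = 0.0372). The latter call was lost with sequences of at least 2 reads (Fisher's exact test, adjusted p = 0.0979) and with sense reads only (Fisher's exact test, adjusted p = 0.257). The remaining call was Gm4316 against the other noncoding genes, with a factor of 0.832 (0.716 to 0.965; Fisher's exact test, adjusted p = 0.0351). It was lost without the main sequences: without the most read sequence of each locus the factor was 0.976 (Fisher's exact test, adjusted p = 0.865). This comparison, too, is with a pool not chosen by uracil at position 1. Among the 86 noncoding genes with this base in at least 50% of reads, the median ratio was 0.400. The ratio of Gm4316, 0.394, lay close to it. In order of their ratios, Gm4316 and Gm42427 (1.10, 0.929 to 1.31) and Gm42427 and AC140207.2 (0.890, 0.746 to 1.06) did not differ beyond the sampling of reads. With sense reads only, however, Gm42427 lay above Gm4316 (1.26, Fisher's exact test, adjusted p = 0.0290). With 16 to 36 nt it lay below Gm4316 (0.764, Fisher's exact test, adjusted p = 0.000256). This wider class adds 298 WT and 292 KO reads of 16 to 23 nt at Gm4316, but 58 and 39 at Gm42427. Gm4316 against AC140207.2 had a factor of 0.807 (0.652 to 0.999, Fisher's exact test, adjusted p = 0.0727). It passed with at least 2 reads and with sense reads only (Fisher's exact test, adjusted p = 0.0112 and 0.00799). With 16 to 36 nt this factor was 1.22. These tests compare reads of 2 libraries and not the genotypes, and with each distinct sequence counted once none of the 10 passed. They hold for RNAs matching no other gene and were not run on the shared ones.

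The summed marker miRNAs of the cells in whole testis had ratios well above those of the piRNAs. The miR-290 cluster, which is expressed in germ cells, had 7 of 9 miRNAs detected, with Mir290b and Mir292b at 0, and its sum was 2024 reads in WT and 2661 in KO, a ratio of 1.30 (1.22 to 1.37). The supporting-cell miRNAs Mir202 and Mir140 together had a ratio of 1.06, the 5 mesenchymal miRNAs 1.02, the 3 blood miRNAs 0.799 and Mir10b, the most read miRNA, 0.988. The mesenchymal sum joined unlike members, with Mir143 at 0.811 (0.803 to 0.819) and Mir145a at 0.882 but Mir199a-1 and Mir199a-2 both at 1.32. In a bulk sample fewer cells of a type and less RNA per cell cannot be told apart, and the part of cell composition in the piRNA ratios was not tested.

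Among RNAs matching no other gene, the 5′ ends were spread over the transcript at Gm42427 and collected at 1 or a few positions at the other 3 loci. RNAs shared with other genes were not placed on the transcripts. Gm42427 is a single-exon gene model of the class TEC, which still awaits experimental support (chr5:44137980-44143271, 5292 nt). Its WT reads of 24 to 33 nt came from 265 sense and 206 antisense 5′ ends and touched 44.7% of its bases. The position with the most reads, 665, held 6.82% of the WT reads and 6.57% of the KO reads, and 29 positions were needed to reach 50% of the WT reads. Of the reads matching only this locus 95.3% in WT and 96.3% in KO had their 5′ end before position 2415, where the first stretch shared with Gm4316 begins. Reads matching both genes were left out by the rule, which lowers the counts in the shared stretches. The 1000-nt window with the most WT reads, from 540 to 1539, held 55.4% of them. The 4 most read sense ends of Gm42427 were all read less often in KO. Position 665 went from 113 to 48 reads, 1256 from 90 to 41, 1874 from 64 to 39 and 1206 from 51 to 32, with ratios from 0.418 (0.292 to 0.591) to 0.618 (0.384 to 0.980) whose intervals overlap.

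RNAs shared with other genes made up 60.2% of the matching WT reads of 24 to 33 nt at Gm4316 and were not placed. Among the rest, Gm4316 gave mostly a single piRNA. This lincRNA gene (chr8:123165255-123178765) lies within the span of the gene model Gm20388 on the same strand and has 2 transcripts, and the 5′ ends were placed on the one of 2617 nt with 2 exons, which all but 2 WT reads and 1 KO read of 24 to 33 nt matched. Position 403 in exon 2 (chr8:123170935) was the 5′ end of 560 of the reads placed in WT and 204 in KO, or 87.0% and 79.1%, with a ratio of 0.359 (0.304 to 0.422). These RNAs ended at 9 different places, but 71.8% in WT and 70.6% in KO were 27 nt long. All other reads of 24 to 33 nt at Gm4316 numbered 87 in WT and 55 in KO, a ratio of 0.623 (0.436 to 0.883), and its 33 antisense 5′ ends in WT held at most 6 reads each.

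Gm7968 (also TEC, chr15:35589314-35591638, 1 exon, 2325 nt) lies within the span of the protein-coding gene Vps13b on the same strand (chr15:35371160-35931229). Position 874 was the 5′ end of 418 reads in WT and 122 in KO, or 63.9% and 59.5% of those placed, with a ratio of 0.287 (0.233 to 0.353). Of these RNAs 80.6% in WT and 86.9% in KO were 30 nt long, 3 nt longer than the main product of Gm4316. The main antisense end lay opposite it at position 899, with 82 reads in WT and 21 in KO (ratio 0.252, 0.148 to 0.411). Together with their neighbours, from 10 nt before to 40 nt after position 874, these ends held 613 of 654 reads in WT and 189 of 205 in KO. A further 40 reads in WT and 14 in KO matched the transcript at 2 places and were not placed.

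AC140207.2 (lincRNA, chr18:67066578-67084380) is by far the longest of the transcripts, with 17803 nt in 1 exon, yet a window of 1000 nt from position 13199 held 79.2% of its WT reads, and a window of this size from position 13198 held 80.4% of its KO reads. Sense ends at 14019 and 14013, only 6 nt apart, were the most read. The first went from 124 to 78 reads, a ratio of 0.620 (0.461 to 0.829), and the second from 68 to 21, a ratio of 0.304 (0.177 to 0.502). These intervals overlap slightly, and the positions were singled out after their values were seen, so their difference was not tested.

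**Figure D2:**
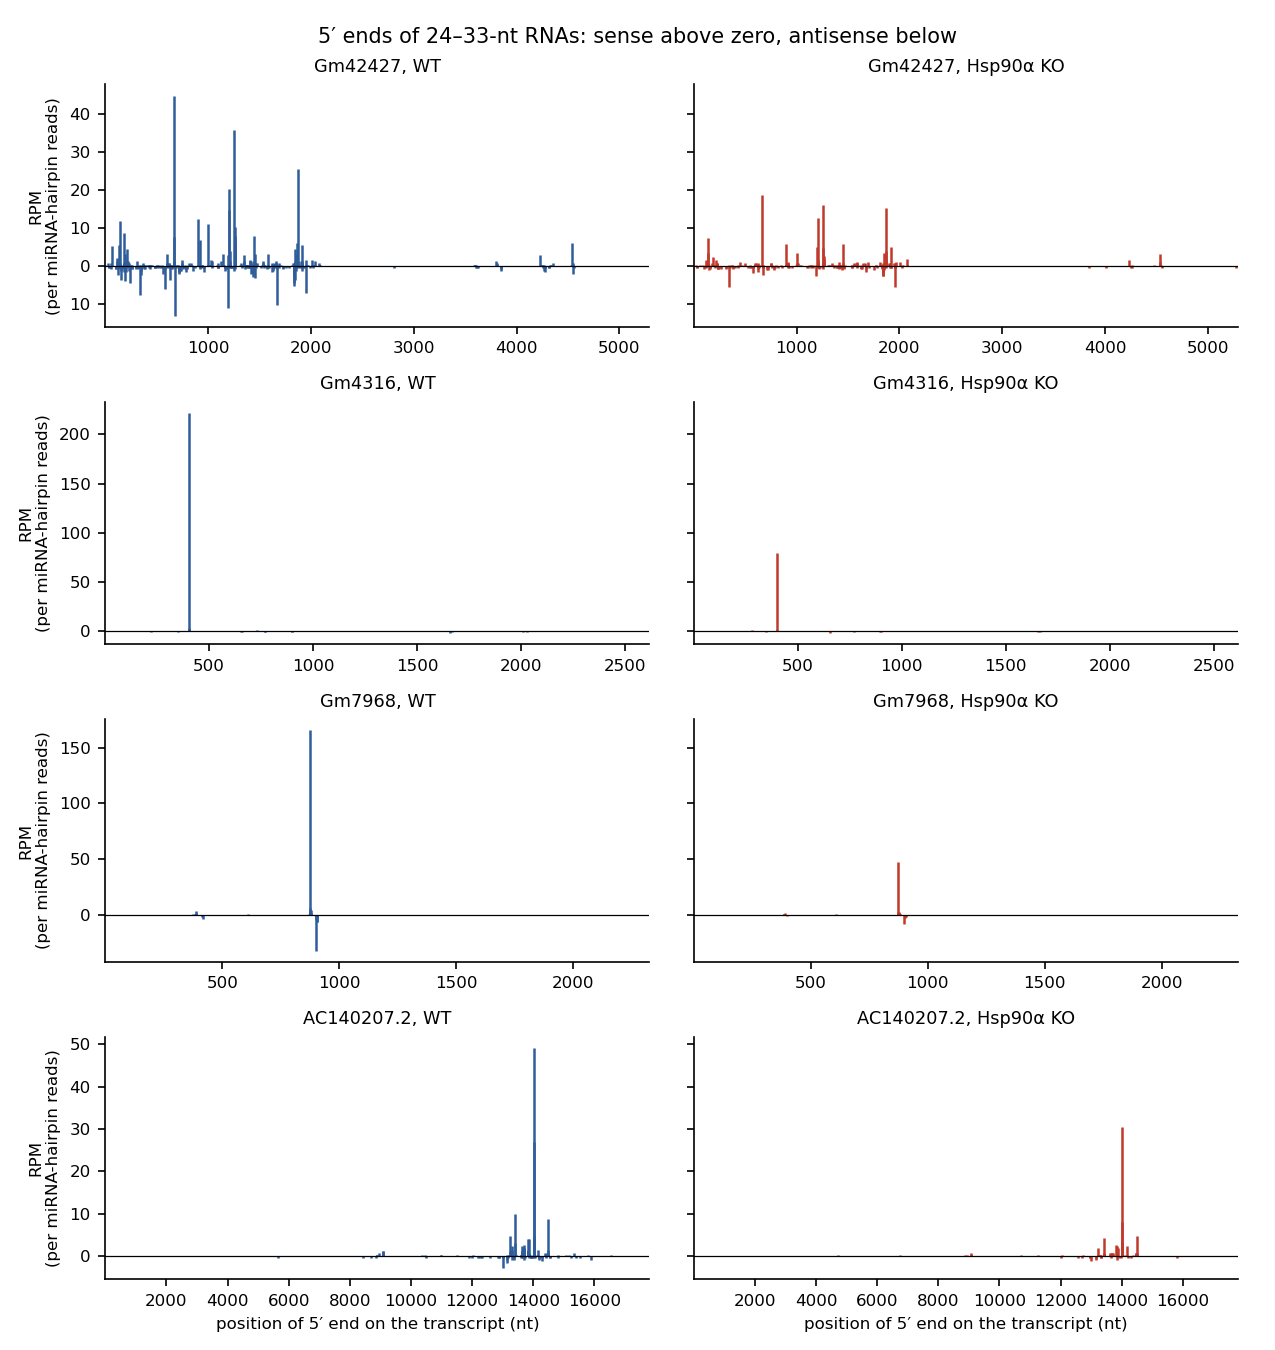
5′ ends of RNAs of 24 to 33 nt matching no other gene, by position on the transcript (nt, from its 5′ end) in WT (left, blue) and KO (right, red), in RPM, with sense ends above and antisense ends below zero and the same vertical scale within a locus. Gm42427 shows many ends left of position 2415, Gm4316 a single sense end at 403, Gm7968 a sense end at 874 with antisense ends below it, and AC140207.2 a group of sense ends around 14019.

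The sense shares, which were part of the choice, were 66.9% in WT and 71.8% in KO at Gm42427, 91.0% and 85.7% at Gm4316, 69.7% and 72.4% at Gm7968 and 87.0% and 91.8% at AC140207.2. Uracil at position 1 was found in 68.8% and 70.0%, 94.7% and 93.8%, 79.4% and 77.1%, and 87.2% and 88.6% of reads, in the same order. At Gm4316 and Gm7968 the sense majority came from a few much-read sequences: with each sequence counted once, 36.1% and 38.8% of the WT sequences were sense. The antisense RNAs also started mostly with uracil at Gm42427 (67.2% in WT), Gm4316 (81.0%) and AC140207.2 (62.7%), whereas at Gm7968 46.4% did, since its main antisense RNA starts with C.

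Antisense RNAs were also fewer in KO at every locus. The KO/WT ratio of antisense RNAs of 24 to 33 nt was 0.370 (0.314 to 0.435) at Gm42427, against 0.467 (0.420 to 0.518) for its sense RNAs. At Gm4316 it was 0.628 (0.404 to 0.965) against 0.371 (0.317 to 0.434), at Gm7968 0.278 (0.205 to 0.373) against 0.318 (0.264 to 0.382) and at AC140207.2 0.309 (0.180 to 0.511) against 0.516 (0.438 to 0.605). Antisense RNAs thus had the lower value at 3 loci and the higher one at Gm4316, and since strand was part of the choice these differences were not tested.

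The loci differed widely in length and in the base at position 10, which were not used to choose them. RNAs of 28 to 33 nt, the range of the longer piRNAs, made up 63.3% of WT reads and 57.3% of KO reads at Gm42427, and 73.7% and 70.6% at Gm7968. At AC140207.2 they made up 48.1% and 38.4%, and at Gm4316 only 21.3% and 22.4%. Over the other noncoding genes the share was 55.3% in WT (54.5 to 56.0) and 51.1% in KO (50.0 to 52.1). Of 8 two-sided tests of length and of position 10 between the libraries, the share of long RNAs at Gm42427 was the only one past the threshold, with an odds ratio KO to WT of 0.777 (0.648 to 0.932; Fisher's exact test, adjusted p = 0.0493). It lost this when sequences read once over both libraries were left out (Fisher's exact test, adjusted p = 0.068). At AC140207.2 the odds ratio was 0.675 (0.491 to 0.926; Fisher's exact test, adjusted p = 0.0546), and without the most read sequence 0.642 (Fisher's exact test, adjusted p = 0.0289).

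**Figure D3:**
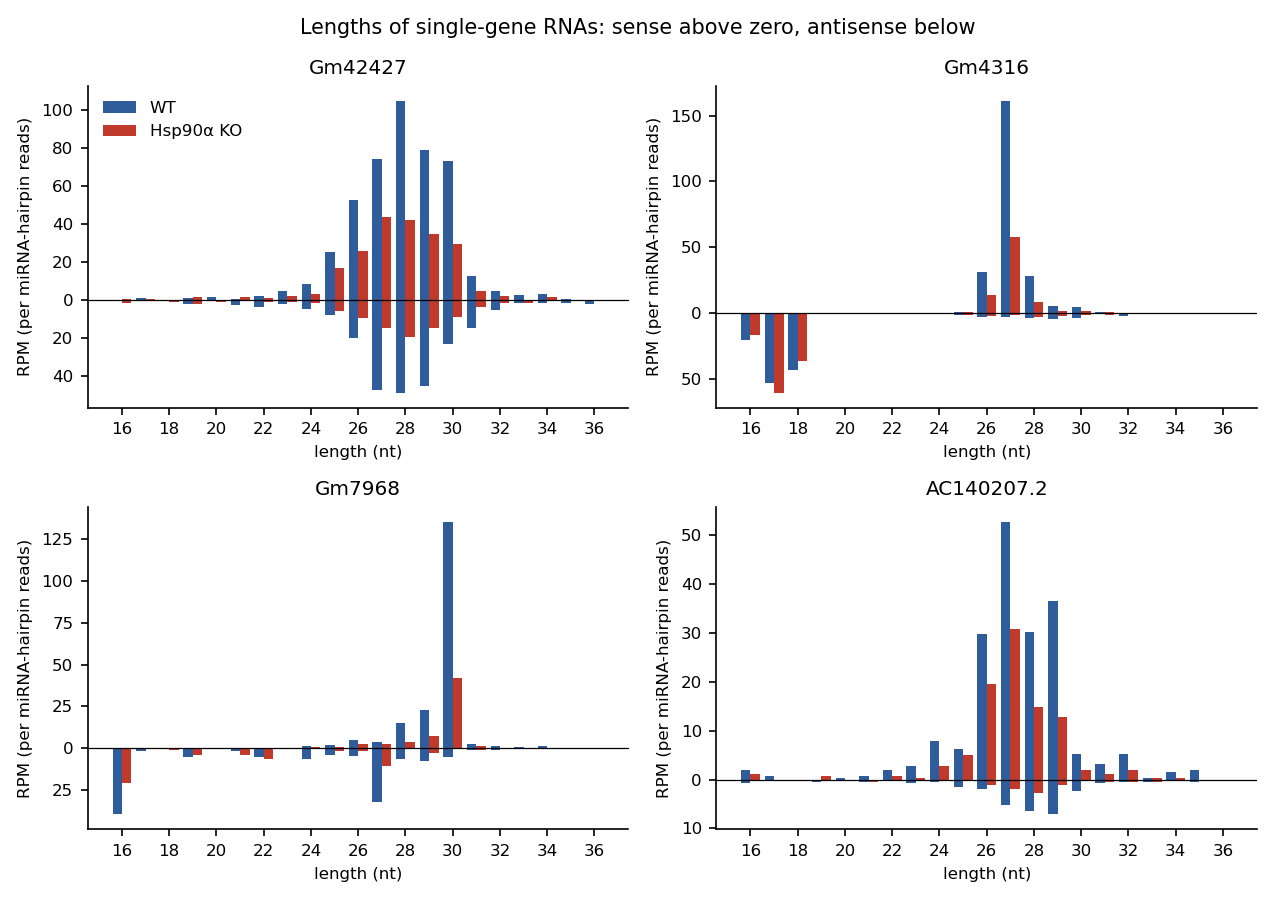
Number of RNAs by length (16 to 36 nt) at each locus in RPM, WT in blue and KO in red, sense above and antisense below zero. The main sense length was 28 nt in WT at Gm42427, 27 nt at Gm4316 and AC140207.2 and 30 nt at Gm7968, and Gm4316 and Gm7968 had antisense RNAs of 16 to 18 nt and of 16 nt.

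Within Gm42427 the ends at position 665 held RNAs of unlike length. Those of 27 nt went from 59 to 36 reads and those of 30 nt from 26 to 1 read, whereas at position 1256 the RNAs were mostly 30 nt in both libraries and the 30-nt RNA shown above went from 84 to 39 reads. This contrast was noticed after the values were seen and was not tested.

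By reads of single-gene RNAs, adenine at position 10 was most frequent at Gm7968 and Gm42427. In WT 59.6% (57.2 to 61.9) of the reads of Gm42427 and 67.6% (64.1 to 71.0) of those of Gm7968 had it, against 28.4% (24.7 to 32.5) at AC140207.2, 5.41% (3.92 to 7.43) at Gm4316 and 35.2% (34.5 to 35.9) over the other noncoding genes. In KO the shares were 56.4%, 64.5%, 21.2% and 8.11% at the same loci and 33.1% over the other genes, and none of the 4 differences passed (Fisher's exact test, adjusted p from 0.0960 to 0.464). With each sequence counted once the WT share was 41.7% at Gm4316 and 33.98% at Gm7968, which turns their order, 46.8% at Gm42427 and 29.9% at AC140207.2. With RNAs of other genes kept it was 51.1% at Gm7968, 39.0% at Gm42427, 29.8% at Gm4316 and 26.5% at AC140207.2. By reads, at Gm4316 and Gm7968 the share followed the base of 1 RNA, G in TaagaacttGgaacctcgctgaaaagg and A in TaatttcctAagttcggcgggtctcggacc. At Gm42427 it was 65.6% among sense and 47.4% among antisense RNAs in WT, spread over many positions.

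The 10-nt overlap of the ping-pong cycle was present at Gm42427. Of all pairs of sense and antisense reads whose 5′ ends overlapped by 1 to 30 nt, each pair of ends weighted by the product of its reads, 42.9% in WT and 24.6% in KO overlapped by 10 nt, while the other overlaps held 1.97% and 2.60% on average and at most 7.0% and 6.83%. The pair of positions 665 and 674 alone, read 113 and 33 times in WT and 48 and 6 times in KO, gave most of this signal. Without it, a setting added after the data were seen, 12.7% and 9.69% of the weighted pairs overlapped by 10 nt. With each pair of ends counted once, 61 pairs in WT overlapped by 10 nt, against 26.2 on average and at most 36 for the other overlaps, and in KO 22 against 10.3 and at most 17. The most frequent overlap was thus 10 nt in both libraries, by either count.

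The sequences of the most read pair and of the pair at positions 143 and 152 are shown, with the 10 bases that the partners share as reverse complements in capitals.
Gm42427 sense, position 665, chr5:44138644-44138670: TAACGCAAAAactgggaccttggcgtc
Gm42427 antisense, position 674, chr5:44138624-44138653: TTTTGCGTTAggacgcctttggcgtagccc
Gm42427 sense, position 143, chr5:44138122-44138149: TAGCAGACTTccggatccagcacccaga
Gm42427 antisense, position 152, chr5:44138104-44138131: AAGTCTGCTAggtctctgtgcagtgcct

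The 4 RNAs shown were read 59, 10, 10 and 8 times in WT and 36, 2, 1 and 2 times in KO, in that order. No RNA longer than 30 nt was printed, while at position 674 the main length in WT was 31 nt. Both RNAs of the most read pair start with T and carry A at position 10, whereas in the other pair the sense RNA starts with T and the antisense RNA with A. Sense reads of Gm42427 with an antisense partner at a 10-nt overlap were 414 of 1108 in WT (37.4%) and 115 of 525 in KO (21.9%), and antisense reads with a sense partner 219 of 548 (39.96%) and 45 of 206 (21.8%). The KO library had fewer reads and fewer 5′ ends at this locus, 275 against 471, and so fewer possible partners, which was not corrected for. The antisense end at 674 had a ratio of 0.179 (0.0613 to 0.433), against 0.418 for its sense partner.

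The other loci showed other patterns or too few pairs. At Gm7968 the most frequent overlap was 26 nt, with 72.9% of weighted pairs in WT and 68.4% in KO, which is the distance between the main sense end at 874 and the main antisense end at 899, and 10-nt overlaps held 0.0169% and 0.238%. A partner of the main sense RNA with a 10-nt overlap would begin at position 883. Among reads of 24 to 33 nt matching no other gene and placed once, no antisense read began there in either library. RNAs shared with other genes, 94.6% of the matching WT reads at Gm7968, were not placed. A partner among them would not have been seen. At Gm4316 no antisense 5′ end of RNAs matching no other gene overlapped that of the RNA at 403 by 1 to 30 nt in either library. Here too the shared RNAs, 60.2% of the matching WT reads, were not placed. At AC140207.2 few antisense reads left 550 weighted pairs in WT, of which 1.64% overlapped by 10 nt, and 36 in KO, of which 16.7% did, from 2 pairs of ends.

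**Figure D4:**
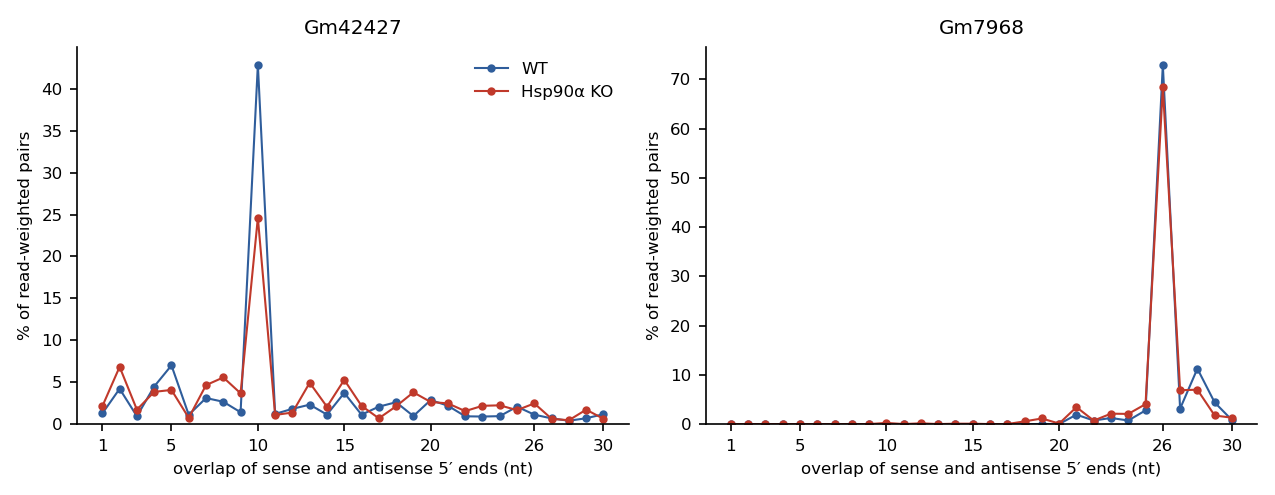
Share of read-weighted pairs of sense and antisense RNAs of 24 to 33 nt (%) by the overlap of their 5′ ends (1 to 30 nt) at Gm42427 (left) and Gm7968 (right), WT in blue and KO in red. Gm42427 peaks at 10 nt with 42.9% in WT and 24.6% in KO, and Gm7968 at 26 nt with 72.9% and 68.4%.

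Antisense RNAs shorter than piRNAs stood out at Gm7968 and Gm4316 and behaved differently there. At Gm7968, 119 of 138 placed antisense reads of 16 to 23 nt in WT and 77 of 97 in KO ended at position 884, opposite base 11 of the main sense RNA, the base next to where a PIWI protein guided by it would cut. Most were a 16-nt RNA that begins with the main antisense piRNA at position 899. It is shown to compare with the sequences above.
Gm7968 antisense, 16 nt, chr15:35590197-35590212: cgagacccgccgaact

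The 16-nt RNA was read 98 times in WT and 53 times in KO, a ratio of 0.533 (0.374 to 0.752), whereas the 27-nt RNA with the same 5′ end went from 71 to 18 reads, a ratio of 0.2497 (0.140 to 0.423). Both were lower in KO, and their intervals overlap. Ends of this kind, opposite base 11 of any RNA of 24 to 33 nt of the other strand, held 97.8% (93.8 to 99.3) of the antisense reads of 16 to 23 nt at Gm7968 in WT and 90.7% (83.3 to 95.04) in KO. Sense 5′ ends lay at every position from 872 to 879 in WT, so several adjacent antisense ends counted. The share to be met without cutting was not worked out. At Gm42427, with its many 5′ ends, such ends held 3 of 27 antisense and 9 of 31 sense reads of this length in WT, and 5 of 17 and 3 of 22 in KO. At Gm4316 they held none of 296 antisense reads in WT, which allows a share of up to 1.28% (Wilson upper bound), and 2 of 290 in KO.

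At Gm4316 the short antisense RNAs were about as frequent in both libraries. Those of 16 to 18 nt were read 294 times in WT and 289 times in KO, a ratio of 0.968 (0.820 to 1.14), beside 0.359 for the piRNA of this gene. Of these, 291 and 287 ended in CCA, with their 3′ end at position 205 (chr8:123165459). The 3 most read are shown, with CCA in capitals.
Gm4316 antisense, 17 nt, chr8:123165459-123165475: tctcggtggaacctCCA
Gm4316 antisense, 18 nt, chr8:123165459-123165476: atctcggtggaacctCCA
Gm4316 antisense, 16 nt, chr8:123165459-123165474: ctcggtggaacctCCA

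These RNAs were read 134, 108 and 49 times in WT and 155, 92 and 40 times in KO. CCA is the end that cells add to every tRNA, and nuclear tRNAs were not among the transcripts searched. Reads longer than 18 nt that ended in the 17-nt sequence numbered 13 in WT and 10 in KO, and of these 1 and 0 matched the Gm4316 transcript. Whether the short RNAs came from Gm4316 or from tRNA was not tested, and they were left out of the piRNA counts by their length.

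Many RNAs of these loci have other possible sources, which limits what a single gene name stands for. RNAs of 24 to 33 nt that matched a transcript of the locus and also other genes made up 62.4% of all matching reads at Gm42427 in WT, 60.2% at Gm4316, 94.6% at Gm7968 and 42.0% at AC140207.2. Their KO/WT ratios were 0.344 (0.319 to 0.370), 0.347 (0.306 to 0.392), 0.387 (0.374 to 0.400) and 0.381 (0.312 to 0.463), so that the shared RNAs were lower in KO as well. With them included the WT sense share was 41.5% at Gm7968, 68.8% at Gm4316, 73.3% at Gm42427 and 81.3% at AC140207.2. For the 4 loci together it was 53.0%, against 74.8% without them. Gm42427 and Gm4316 are themselves related: the 3′ end of Gm42427 (positions 4462 to 5292) aligned with Gm4316 in the same direction over 875 columns, gaps included, with 91.7% identity, and positions 2415 to 2773 over 359 columns with 97.2%. A total of 363 reads in WT and 145 in KO matched both genes, with a ratio of 0.393 (0.322 to 0.478). Without a genome sequence, copies outside annotated transcripts would not have been seen.

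The 3 other noncoding genes most like the 4 loci in their profile of length and strand, among 31 with at least 200 reads, were Gm42923, Gm44215 and Gm42047, at distances of 0.218, 0.253 and 0.256 on a scale on which 0 is an equal profile and 1 a profile without overlap. Gm42923 went from 173 to 96 reads of 24 to 33 nt (ratio 0.547), Gm44215 from 197 to 101 (0.505) and Gm42047 from 435 to 152 (0.344). Adenine at position 10 was found in 45.7%, 64.1% and 39.7% of their reads.

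RNAs longer than piRNAs were rare. Reads of 37 to 48 nt that matched only the locus numbered 16 in WT and 0 in KO at Gm42427, 9 and 1 at Gm7968, 7 and 0 at AC140207.2, and 1 and 1 at Gm4316. With a limit set at 3 reads, a count of 0 in KO stands for up to 1.17 RPM. By another rule, the Clopper-Pearson interval, the upper bound of the ratio was 0.255 at Gm42427 and 0.683 at AC140207.2.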

How the data were processed

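For each library the authors clipped adaptors and deposited distinct sequences of 11 to 48 nt with their raw read count, without normalization. The submitters' processing notes name build mm9, but no mapping is in the deposited counts. Exact matches of every sequence from 16 nt upwards were sought in either direction among 141767 GENCODE M21 transcripts (GRCm38), of which 2202 are miRNA hairpins. Sequences matching transcripts of 1 gene only were kept. No genome was used, so the coordinates are those of the transcripts. RNAs of 24 to 33 nt were counted as piRNAs and normalized to 2523084 (WT) and 2561491 (KO) miRNA-hairpin reads.

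The members, gene lists and tests were chosen with earlier results of these data known. Sequences to print were the 3 most read sense RNAs of 24 to 33 nt of each locus and the most read antisense RNA with at least 10 reads. The short RNAs and the pairs were added after their values were seen. Similar loci were those with the smallest total variation distance between length-by-strand profiles. Two-sided Fisher's exact tests were adjusted by Benjamini-Hochberg. Member transcripts were aligned with BLAST 2.17.0. Alternatives covered the normalizing total, length class, distinct sequences, a read minimum, RNAs shared with other genes, strand and the most read sequence. The intervals and Fisher tests were checked on simulated counts, and the matching by a direct search of all transcripts for a sample of the sequences. Tests used scipy 1.17.1 under Python 3.11.15, matching numba 0.67.0 with numpy 2.4.6, tables pandas 2.3.3 and figures matplotlib 3.10.9.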

Additional observations from a re-analysis of the deposited data

How the results depend on the processing

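All 50 alternative KO/WT ratios of the 4 loci, singly and together, lay below 1. The following moved by more than the counting interval of the value reported. Normalized to all reads, the ratio was 0.477 for the loci together, 0.506 for Gm42427 and 0.459 for Gm4316, and normalized to structural RNA of 24 to 33 nt it was 0.469 together and 0.498 for Gm42427. With lengths of 16 to 36 nt, which take in the short antisense RNAs, it was 0.462 together, 0.576 for Gm4316 and 0.373 for Gm7968. With RNAs that match other genes kept it was 0.383 together, 0.378 for Gm42427 and 0.383 for Gm7968. Without its most read sequence Gm4316 had 0.462. With each sequence counted once, the ratio was 0.550 together, 0.526 for Gm42427, 0.766 for Gm4316 and 0.555 for Gm7968 over the miRNA total in reads, and 0.659, 0.631, 0.919 and 0.665, with 0.666 for AC140207.2, over the total in distinct sequences.
The sense majority turned to a minority for distinct sequences at Gm4316 (36.1%) and Gm7968 (38.8%) and with RNAs of other genes kept at Gm7968 (41.5%). The WT share with adenine at position 10 went to 41.7% at Gm4316 and 33.98% at Gm7968 for distinct sequences, and to 29.8% at Gm4316 and 39.0% at Gm42427 with RNAs of other genes kept. Of the 10 comparisons between ratios, 8 passed with lengths of 16 to 36 nt and 0 with distinct sequences. With 16 to 36 nt, Gm42427 (0.770, Fisher's exact test, adjusted p = 1.21e-08) and AC140207.2 (0.827, Fisher's exact test, adjusted p = 0.0252) lay below the other noncoding genes, which were not chosen by uracil at position 1. With distinct sequences the factor of Gm7968 was 1.03 against the other noncoding genes and 0.999 against AC140207.2. The cause of these changes was not tested. Of the 8 tests of composition, 0 passed with distinct sequences, 0 with at least 2 reads and 2 without the most read sequence; the cause was not tested. No paired analysis was possible because there is 1 library per genotype, and depth limits mainly the antisense and short RNAs, often under 100 reads.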
